A study of Mus musculus with 4 samples.

Results

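The genes of cholesterol and fatty acid synthesis, their control and sterol efflux were followed in 4 RNA-seq libraries of mouse B16 tumors, a transplantable melanoma. The set was chosen by name. It holds 30 of the 25239 gene symbols of the tables, and all 30 passed a minimum mean of 10 reads, as did 13357 genes in all. They were placed in 4 arms: 17 sterol synthesis enzymes, 6 fatty acid synthesis enzymes, 5 genes of SREBP control and lipid handling, and 2 sterol efflux transporters. B6 mice carried a B16 tumor under the skin of each flank. They were treated from day 7, CTX was injected into the abdomen in every group 1 day ahead of ACT, and harvest followed 12 days after ACT. Neither CTX nor ACT is spelled out in the labels. The CTX library is the control, with PBS injected into left tumors and no T cells or virus. For MV (L.i.t.), left tumors were injected with free MV and TRP-1 T cells were given intravenously. MV appears as MYXV in column headers, the usual abbreviation of myxoma virus. For Remote tumor (no MV), right tumors of that treatment group were taken, so these mice had the same T cells and no injection at this site. For TRP-1MV, the TRP-1 T cells themselves carried MV and were given intravenously. The flank sampled for TRP-1MV is not stated. No age is given in the labels, which state n = 2 without saying whether animals were pooled. The source field names a melanoma cell line and the extraction protocol names tumor tissue.

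Each group had 1 library, so a ratio describes a pair of libraries and has no replicate check or p-value. Total counts ran from 12375526 in MV (L.i.t.) to 21790759 in Remote tumor (no MV). Levels are CPM, read counts set to a common library size with TMM scaling, which assumes that most genes do not differ. A gene was called higher or lower where the ratio of CPM was at least 2-fold and its 95% interval excluded equality. Intervals, in brackets, cover counting error only. All 12 melanocyte markers had reads in every library, and their summed level was 31823 CPM in CTX, 32726 in Remote tumor (no MV), 8589 in MV (L.i.t.) and 8463 in TRP-1MV. The sum of 10 T cell markers was 9.80, 9.24, 288 and 288 CPM in the same order, and that of 10 macrophage and monocyte markers 42.2, 50.5, 679 and 1006. The part of these shifts in the results was not tested. In such bulk tissue, fewer cells of a type and less RNA per cell cannot be told apart.

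Cells make cholesterol from acetyl-CoA through mevalonate, isoprenoid diphosphates, squalene and lanosterol. Fatty acids are built from the same acetyl-CoA, then elongated and desaturated. SREBP transcription factors, held in the endoplasmic reticulum by Insig proteins when sterols are plentiful, activate both routes, while the oxysterol receptor LXR raises sterol efflux through the transporters ABCA1 and ABCG1. NF-Y is a known partner of SREBP at sterol gene promoters, and the classical sterol regulatory element is the SREBP site.

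Promoters of 4 enzymes are shown because they span the range of ratios described next, from Hmgcs1, among the sterol enzymes nearest to equality, through Mvk to Dhcr7 and Elovl6, the lowest of their arms in MV (L.i.t.). The RefSeq table of build GRCm38.p6 (mm10) held 23 of the 30 genes, in windows of 300 bases from 250 before to 50 after an annotated start. Capitals mark CCAAT, the NF-Y letters, or its reverse complement ATTGG, and in Hmgcs1 also the sterol regulatory element letters TCACNCCAC. The windows are chr13:119690101-119690400 (plus strand) for Hmgcs1, chr5:114444019-114444318 (plus strand) for Mvk, chr7:143829964-143830263 (plus strand) for the third of 3 Dhcr7 starts, and chr3:129532136-129532435 (plus strand) for Elovl6.
Hmgcs1: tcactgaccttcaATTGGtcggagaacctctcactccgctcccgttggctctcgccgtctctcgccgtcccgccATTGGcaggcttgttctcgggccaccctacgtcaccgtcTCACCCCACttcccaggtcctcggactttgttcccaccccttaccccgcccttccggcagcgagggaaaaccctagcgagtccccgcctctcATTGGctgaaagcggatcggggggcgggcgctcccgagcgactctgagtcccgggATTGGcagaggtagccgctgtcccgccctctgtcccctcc
Mvk: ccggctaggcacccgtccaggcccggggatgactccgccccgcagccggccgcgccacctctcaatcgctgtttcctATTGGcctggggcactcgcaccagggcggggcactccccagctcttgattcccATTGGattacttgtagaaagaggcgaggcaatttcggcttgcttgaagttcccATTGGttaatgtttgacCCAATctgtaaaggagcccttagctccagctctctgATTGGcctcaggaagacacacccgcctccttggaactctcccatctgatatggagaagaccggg
Dhcr7: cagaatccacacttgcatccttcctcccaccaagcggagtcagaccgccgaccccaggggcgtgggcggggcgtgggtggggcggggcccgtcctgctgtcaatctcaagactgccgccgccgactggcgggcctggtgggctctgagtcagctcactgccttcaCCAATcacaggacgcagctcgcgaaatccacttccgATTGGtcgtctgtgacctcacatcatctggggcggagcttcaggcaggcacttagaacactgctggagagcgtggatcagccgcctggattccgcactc
Elovl6: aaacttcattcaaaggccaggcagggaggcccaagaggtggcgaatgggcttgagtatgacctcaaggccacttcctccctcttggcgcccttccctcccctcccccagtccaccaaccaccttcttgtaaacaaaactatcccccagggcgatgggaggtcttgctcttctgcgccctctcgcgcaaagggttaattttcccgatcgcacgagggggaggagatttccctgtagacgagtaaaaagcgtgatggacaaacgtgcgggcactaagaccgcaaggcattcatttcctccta
Hmgcs1 held 4 CCAAT matches, Mvk 5, this Dhcr7 window 2, and Elovl6 and the other Dhcr7 windows 0. On either strand, CCAAT was found for 13 of the 14 sterol enzymes in the table, against 41.1% of all 27025 genes in it. It was found for 2 of 4 fatty acid enzymes, Acly and Fasn, and 3 of 4 control genes, Srebf1, Srebf2 and Insig1. Counted by window, 13 of 17 sterol enzyme windows held it, against 37.4% of all windows. TCACNCCAC, on either strand, was in Hmgcs1 alone among the 23 genes and in 1.44% of all genes. No CCAAT match overlapped it. The LXR element letters, AGGTNA, then 5 bases of any kind, then GGTCA, were in none of the 23, Abca1 included, and in 0.096% of all genes. These are matches of letters only.

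The enzymes of the sterol arm were lower in both virus-treated tumors than in CTX, mostly by less than 2-fold. In MV (L.i.t.) against CTX, 16 of 17 sterol enzymes had an interval wholly below equality, as did 42.2% of all compared genes, and in TRP-1MV against CTX 16 of 17 did, against 43.7%. Such intervals are narrower for genes with more reads, as most of these have. The median log2 ratio over the arm was −0.56 in MV (L.i.t.) and −0.62 in TRP-1MV, while that over all compared genes was −0.05 and −0.07. At the 2-fold rule only Dhcr7 was called lower in each comparison and no sterol enzyme was called higher, whereas 11.1% of all genes were called lower and 18.1% higher in MV (L.i.t.), and 11.7% and 18.5% in TRP-1MV. The called share of the arm is thus not above the background. These ratios move with the scaling: total counts add 0.24 to every log2 ratio against CTX, and scaling on 13 housekeeping genes adds 0.50 in MV (L.i.t.) and 0.45 in TRP-1MV. Against Remote tumor (no MV) the same scalings add 0.26 and 0.52 in MV (L.i.t.). On the housekeeping scale 11 of 17 sterol enzymes in MV (L.i.t.) and 10 of 17 in TRP-1MV kept a ratio below equality, and the arm median was −0.056 and −0.17. On the TMM scale, the median of the housekeeping list was itself −0.50 and −0.44, and that of the melanocyte list −1.95 and −2.04. The 13 housekeeping ratios ran from −1.45 to 0.63 in MV (L.i.t.) and from −1.51 to 0.68 in TRP-1MV. In each comparison 4 of the 13 were called lower and 0 higher. The housekeeping scale thus rests on genes that differed among themselves, and it is an alternative rather than a stable reference.

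**Figure D1:**
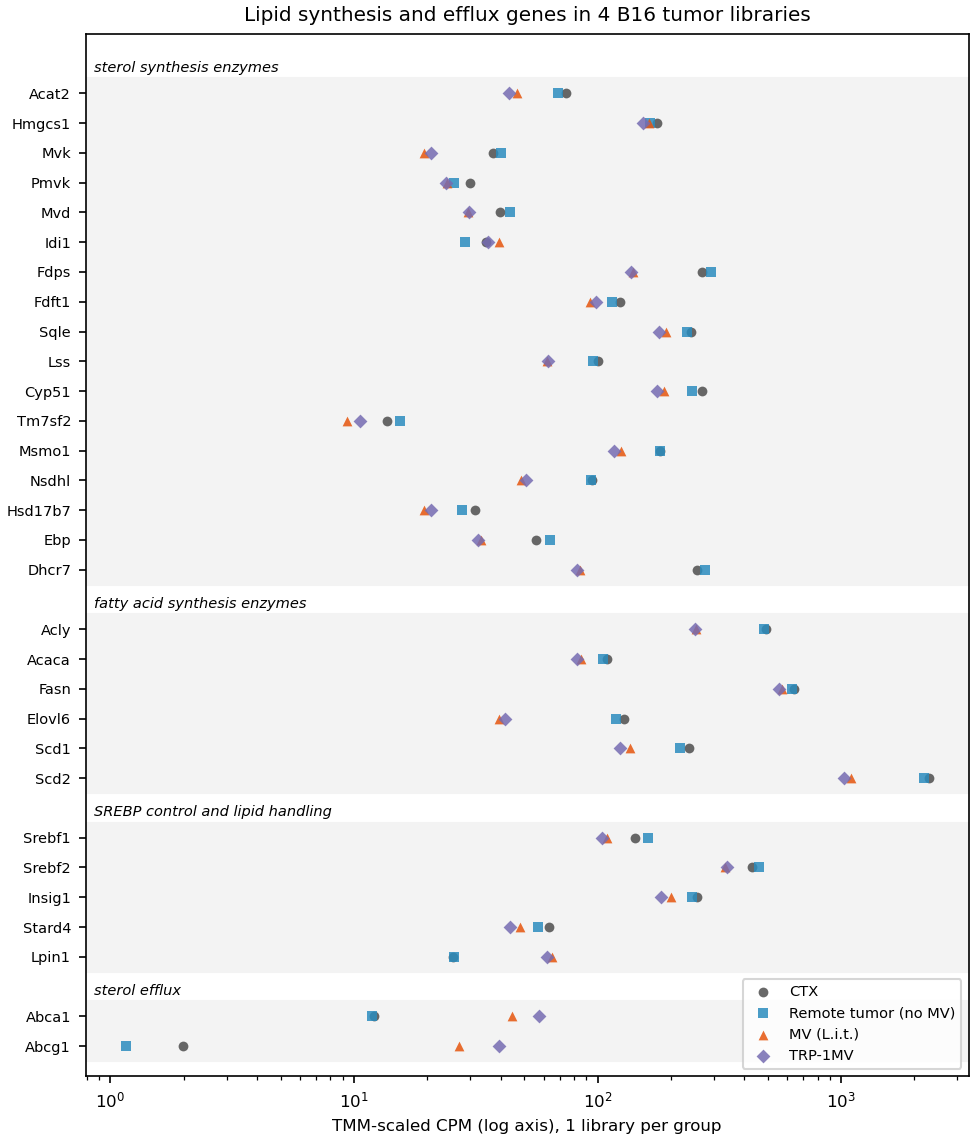
Level of each of the 30 genes in 4 libraries (x axis, TMM-scaled CPM on a log scale; 1 point per library). The 2 virus-treated libraries sit left of CTX and Remote tumor (no MV) for most synthesis enzymes and right of them for Lpin1, Abca1 and Abcg1.

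The first stage, from acetyl-CoA to farnesyl diphosphate, held both the sterol enzymes that differed least and some that differed by nearly 2-fold. Its 7 log2 ratios in MV (L.i.t.) against CTX ran from −0.95 to 0.18. Idi1, the isopentenyl diphosphate isomerase, was the highest of the arm. It stood at 34.8 CPM in CTX, 28.6 in Remote tumor (no MV), 39.4 in MV (L.i.t.) and 35.5 in TRP-1MV, with a log2 ratio to CTX of 0.18 [0.01, 0.35] in MV (L.i.t.) and 0.03 [−0.13, 0.19] in TRP-1MV. The 4 values lie close together, and Remote tumor (no MV) is the lowest. Hmgcs1, which makes HMG-CoA, was the enzyme of the arm nearest to equality in MV (L.i.t.), at −0.11, and next to Idi1 in TRP-1MV, at −0.19. On the total count and housekeeping scales the ratio of Hmgcs1 lay above equality. Fdps, the farnesyl diphosphate synthase (chromosome 3, 89093588 to 89101959), lay at the other end with −0.95 [−1.03, −0.87] and −0.98 [−1.05, −0.91]. Its exons share 26.7% of their bases with the gene model Gm43738 on the same strand, so its reads could have been split or dropped. Between these lay Mvk, the mevalonate kinase, at −0.94 and −0.85, Acat2, the thiolase that forms acetoacetyl-CoA, at −0.67 and −0.77, Mvd, the mevalonate diphosphate decarboxylase, at −0.43 and −0.42, and Pmvk, the phosphomevalonate kinase, at −0.31 and −0.32. Under housekeeping scaling the ratios of Hmgcs1, Pmvk and Mvd turned above equality.

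The middle stage, from farnesyl diphosphate to lanosterol, was lower by a narrow range. Fdft1, the squalene synthase, had log2 ratios to CTX of −0.41 in MV (L.i.t.) and −0.32 in TRP-1MV. Sqle, the squalene epoxidase, had −0.34 and −0.43, and Lss, the lanosterol synthase, −0.70 and −0.69. Fdft1 overlaps Ctsb, a cathepsin gene on the opposite strand, over 18.3% of its exon bases, and the strand setting of the counts is not given in the sources used here. On the housekeeping scale Fdft1 and Sqle turned above equality and Lss did not.

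The last stage, from lanosterol to cholesterol, held the largest difference of the arm. Dhcr7 encodes 7-dehydrocholesterol reductase, the enzyme of the final step of one branch (chromosome 7, 143823145 to 143848410). It stood at 255 CPM in CTX, 277 in Remote tumor (no MV), 84.6 in MV (L.i.t.) and 82.3 in TRP-1MV. The 2 virus-treated libraries were low and the other 2 high. The share of all genes that split the 4 libraries in this way was not computed. Dhcr7 was 3.02-fold lower in MV (L.i.t.) than in CTX (log2 ratio −1.59 [−1.69, −1.50]) and 3.10-fold lower in TRP-1MV (−1.63 [−1.72, −1.54]). It was called lower under all 4 scalings, with log2 ratios of −1.09 and −1.18 on the housekeeping scale.

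The other 6 enzymes of that stage were not called. Nsdhl and Hsd17b7, which act in removal of the C-4 methyl groups, had log2 ratios to CTX of −0.96 and −0.69 in MV (L.i.t.) and −0.90 and −0.60 in TRP-1MV. Msmo1, the methylsterol oxidase, had −0.53 and −0.62 in the same order, and Cyp51, the lanosterol demethylase, −0.52 and −0.62. Ebp, the sterol isomerase, had −0.76 and −0.80, and Tm7sf2, a sterol reductase with 126 to 307 reads per library, −0.56 and −0.38. All 6 were thus lower by less than 2-fold in both libraries. Tm7sf2 overlaps Vps51 over 12.1% of its exon bases, and its ratio in TRP-1MV turned above equality on the housekeeping scale.

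**Figure D2:**
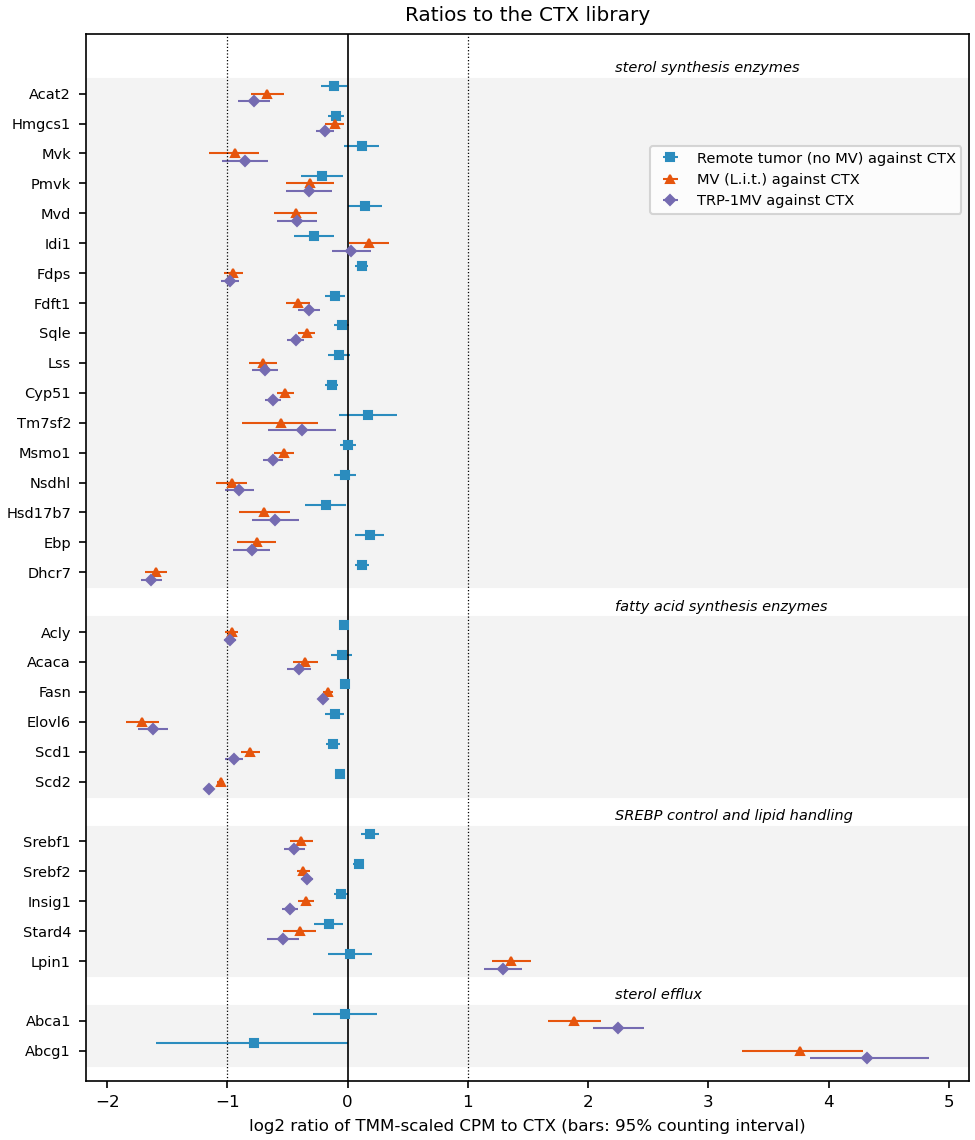
Log2 ratio of each gene to the CTX library (x axis; bars are 95% counting intervals, dotted lines mark 2-fold). Dhcr7, Elovl6 and Scd2 lie left of the lower line and Lpin1, Abca1 and Abcg1 right of the upper line in both virus-treated libraries, while every Remote tumor (no MV) point lies between the lines.

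The fatty acid arm was lower as well, with a median log2 ratio to CTX of −0.89 in MV (L.i.t.) and −0.96 in TRP-1MV. All 6 enzymes had intervals wholly below equality in both comparisons, as did 42.2% of all compared genes in MV (L.i.t.) and 43.7% in TRP-1MV. Elovl6 and Scd2 were called lower, 2 of 6 enzymes, where 11.1% and 11.7% of all genes were, and no fatty acid enzyme was called higher. On the housekeeping scale the medians were −0.39 and −0.51, and Acaca and Fasn turned above equality in both comparisons.

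Elovl6, which elongates palmitate to stearate (chromosome 3, 129532355 to 129638495), had the lowest log2 ratio of all 30 genes in MV (L.i.t.). Its level was 128 CPM in CTX, 119 in Remote tumor (no MV), 39.3 in MV (L.i.t.) and 41.8 in TRP-1MV. As for Dhcr7, the virus-treated libraries formed the low pair. The difference from CTX was 3.26-fold in MV (L.i.t.) (log2 ratio −1.71 [−1.84, −1.57]) and 3.07-fold in TRP-1MV (−1.62 [−1.74, −1.49]), and it was called under all 4 scalings.

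Scd2, a stearoyl-CoA desaturase (chromosome 19, 44293674 to 44306864), was the most abundant of the 30 genes per kilobase of exon in every library, at 418 CPM per kilobase in CTX. Its level was 2287 CPM in CTX, 2184 in Remote tumor (no MV), 1101 in MV (L.i.t.) and 1029 in TRP-1MV. The difference from CTX was 2.08-fold in MV (L.i.t.) (log2 ratio −1.06 [−1.08, −1.03]) and 2.22-fold in TRP-1MV (−1.15 [−1.18, −1.13]). It was not called with total counts, at −0.81 and −0.91, or on the housekeeping scale, at −0.55 and −0.70. Its neighbour and paralog Scd1 had −0.81 and −0.94 on the TMM scale. Reads shared by the paralogs may have been dropped or assigned to either one.

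The remaining fatty acid enzymes differed in size. Acly, which makes cytosolic acetyl-CoA from citrate, had log2 ratios to CTX of −0.96 in MV (L.i.t.) and −0.98 in TRP-1MV. Acaca, the acetyl-CoA carboxylase, had −0.35 and −0.40. Fasn, the fatty acid synthase, was the nearest to equality of its arm at 641 CPM in CTX, 631 in Remote tumor (no MV), 573 in MV (L.i.t.) and 556 in TRP-1MV, with log2 ratios of −0.16 [−0.20, −0.12] and −0.20 [−0.24, −0.17]. On the total count scale Fasn lay above equality.

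The arms were also set against each other within each library, a comparison that no scaling of libraries moves. Sterol enzymes held 34.2% [33.9, 34.5] of the reads of both arms in CTX, 35.0% [34.7, 35.2] in Remote tumor (no MV), 37.5% [37.1, 38.0] in MV (L.i.t.) and 37.9% [37.5, 38.3] in TRP-1MV, with exact Clopper-Pearson intervals. The sterol share was thus higher in the virus-treated pair. Scd2 alone held 58.7% of the fatty acid arm in CTX and 49.4% in TRP-1MV. Without Scd2 the order turned, with 55.7% [55.4, 56.1] in CTX, 56.4% [56.0, 56.7] in Remote tumor (no MV), 54.8% [54.2, 55.3] in MV (L.i.t.) and 54.7% [54.2, 55.2] in TRP-1MV. The direction of the arm balance by summed reads thus changed with whether Scd2 was counted. Without Scd2, Fasn held 12292 of 30858 fatty acid reads in CTX and 7747 of 14679 in MV (L.i.t.). Leaving out Fasn was not tried. Per kilobase of exon, the sterol to fatty acid ratio of summed CPM was 0.739 in CTX, 0.767 in Remote tumor (no MV), 0.917 in MV (L.i.t.) and 0.938 in TRP-1MV, and without Scd2 it was 2.10, 2.17, 2.25 and 2.25. Per kilobase, the virus-treated pair was thus above CTX with Scd2 and without it.

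By medians over members, the sterol arm stood above the fatty acid arm by 0.33 on the log2 scale in MV (L.i.t.) against CTX and by 0.34 in TRP-1MV against CTX. Without Acat2, Scd1 and Scd2, whose reads may be shared with near-identical genes, these gaps were 0.11 and 0.079. The 6 fatty acid ratios ran from −1.71 to −0.16 in MV (L.i.t.) and the 17 sterol ratios from −1.59 to 0.18, so the ranges of the arms overlapped over most of their length.

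**Figure D3:**
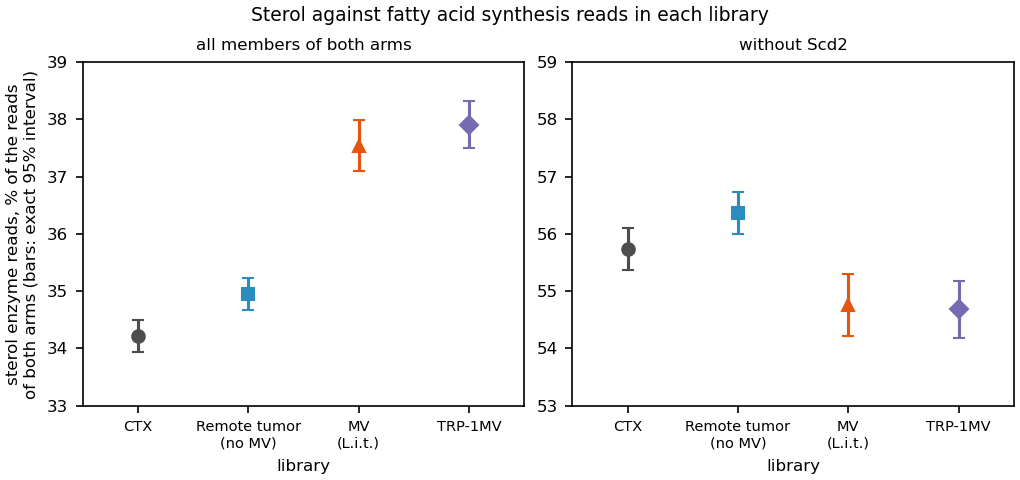
Share of sterol enzyme reads among the reads of both arms in each library (y axis, %, with its own range in each panel; bars are exact 95% intervals). The left panel has all 23 enzymes and runs from 34.2% in CTX to 37.9% in TRP-1MV, and the right panel leaves out Scd2 and puts both virus-treated libraries below CTX.

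Genes of SREBP control were lower by a small and even amount. Srebf2, encoding the SREBP that mainly drives sterol genes, had log2 ratios to CTX of −0.37 in MV (L.i.t.) and −0.34 in TRP-1MV. Srebf1, encoding the SREBP isoforms that mainly drive fatty acid genes, had −0.38 and −0.44. Neither was called. Insig1, the sterol-responsive retention factor and itself an SREBP target, had −0.34 and −0.48, and Stard4, a sterol transfer protein, −0.40 and −0.54. On the housekeeping scale Srebf1 and Srebf2 turned above equality in both comparisons, and Insig1 and Stard4 in MV (L.i.t.) only.

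Lpin1, the phosphatidate phosphatase of triglyceride synthesis and also a transcriptional coregulator, went the other way (chromosome 12, 16535669 to 16610966). Its level was 25.4 CPM in CTX, 25.8 in Remote tumor (no MV), 65.3 in MV (L.i.t.) and 62.3 in TRP-1MV. The 2 virus-treated libraries were high and the other 2 low, a split whose share over all genes was not computed. Lpin1 was 2.56-fold higher in MV (L.i.t.) than in CTX (log2 ratio 1.36 [1.20, 1.52]) and 2.45-fold higher in TRP-1MV (1.29 [1.13, 1.45]), and it was called under all 4 scalings.

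Both efflux transporters were higher in the virus-treated tumors. Abca1, which passes cholesterol to lipid-poor apolipoproteins (chromosome 4, 53030787 to 53159895), stood at 12.1 CPM in CTX, 11.9 in Remote tumor (no MV), 44.7 in MV (L.i.t.) and 57.5 in TRP-1MV. It was 3.69-fold higher in MV (L.i.t.) than in CTX (log2 ratio 1.89 [1.66, 2.11]) and 4.75-fold higher in TRP-1MV (2.25 [2.04, 2.46]). Abcg1, which passes cholesterol to mature high-density lipoprotein (chromosome 17, 31057675 to 31117988), had the widest range of the 30 genes. It had 38 reads and 1.98 CPM in CTX, 23 reads and 1.16 CPM in Remote tumor (no MV), 363 reads and 26.9 CPM in MV (L.i.t.), and 637 reads and 39.6 CPM in TRP-1MV. The ratio to CTX was 13.6-fold in MV (L.i.t.) (log2 ratio 3.76 [3.28, 4.28]) and 20.0-fold in TRP-1MV (4.32 [3.85, 4.83]). Both were called under all 4 scalings. Beside them, 8 of 10 macrophage and monocyte markers were called higher in each of these comparisons, with a median log2 ratio of 3.79 and 4.37. All 10 T cell markers were called higher too, with 5.92 and 5.92, where 18.1% and 18.5% of all compared genes were. Of 8 neutrophil markers 6 passed the minimum count, and all 6 were called higher, with 4.99 and 5.86. Their reads came mostly from the virus-treated libraries. The 2 macrophage and monocyte markers not called were Mrc1 and C1qa. Mrc1 had 77 reads in CTX, 78 in MV (L.i.t.) and 108 in TRP-1MV, and C1qa 225, 183 and 273. The macrophage marker Adgre1 rose from 34 reads in CTX to 1544 in MV (L.i.t.) and 2797 in TRP-1MV. The part of these cells in the transporter levels was not tested.

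Over the whole set, 3 of 30 genes were called higher and 3 lower in each comparison of a virus-treated tumor with CTX. The 3 higher genes were Lpin1, Abca1 and Abcg1, and the 3 lower ones Dhcr7, Elovl6 and Scd2. Over all compared genes 18.1% were called higher and 11.1% lower in MV (L.i.t.), and 18.5% and 11.7% in TRP-1MV, so the set's counts are not above the background in either direction. Both comparisons share the CTX library.

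Remote tumor (no MV) against CTX showed no called gene in the set. Over all compared genes 0.457% were called higher and 0.247% lower. The median log2 ratio was −0.05 over the sterol arm and −0.06 over the fatty acid arm, and the 30 ratios ran from −0.78 to 0.19. The lowest was Abcg1 at −0.78 [−1.59, 0.01], whose interval reached equality at 23 against 38 reads. Srebf1 was the highest at 0.19 [0.11, 0.26], and Ebp stood at 0.18 [0.06, 0.30], Dhcr7 at 0.12 [0.06, 0.17] and Fdps at 0.12 [0.06, 0.17]. Idi1 was lower at −0.28 [−0.44, −0.12]. Apart from Abcg1, these differences exceed counting error. The spread between animals is unknown. The melanocyte marker median was 0.06 here and 2 of 10 macrophage and monocyte markers were called higher. Of the 6 compared neutrophil markers, 2 were called higher as well.

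MV (L.i.t.) against Remote tumor (no MV) set the injected against the uninjected flank of 1 treatment group, without using CTX. Again 3 genes were called higher, Lpin1, Abca1 and Abcg1, where 18.6% of all genes were. The 4 called lower were Mvk, Fdps, Dhcr7 and Elovl6, where 11.7% of all genes were. Dhcr7 had a log2 ratio of −1.71 [−1.80, −1.62] and Elovl6 one of −1.60 [−1.74, −1.46]. Mvk at −1.06 [−1.26, −0.85] and Fdps at −1.07 [−1.14, −0.99] passed the 2-fold rule here and were not called with total counts or on the housekeeping scale. Scd2, at −0.99 [−1.02, −0.96], fell just short of it. Abcg1 was 23.2-fold higher (4.54 [3.93, 5.21]) and Abca1 3.75-fold higher (1.91 [1.69, 2.13]). The sterol median was −0.56 and the fatty acid median −0.81.

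TRP-1MV against MV (L.i.t.) compared T cell-carried with injected free virus. No gene of the set was called, with 0.562% of all genes called higher and 0.217% lower. The sterol median was −0.03 and the fatty acid median −0.05. The intervals of 7 members excluded equality, all at less than 2-fold. The efflux pair was higher in TRP-1MV, Abca1 at 0.36 [0.21, 0.51] and Abcg1 at 0.56 [0.37, 0.75]. The 5 below equality were Sqle, Cyp51, Scd1, Scd2 and Insig1, between −0.13 and −0.09. Over all genes, 11.0% of intervals lay above equality and 11.1% below. Beside them the macrophage and monocyte list summed to 1006 CPM in TRP-1MV against 679 in MV (L.i.t.). Of its 10 markers, 8 had intervals above equality and 1 below, with log2 ratios from −0.59 for Ccr2 to 0.68. Adgre1 stood at 0.60 [0.51, 0.69]. The other 28 genes of the set ran from −0.15 for Idi1 to 0.18 for Tm7sf2.

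Related genes were described from 6 further lists of 45 genes, of which 43 passed the minimum count. In MV (L.i.t.) against CTX 5 were called higher and 4 lower, and in TRP-1MV against CTX 6 and 3. These counts are below the shares of all genes called, 18.1% higher and 11.1% lower in MV (L.i.t.) and 18.5% and 11.7% in TRP-1MV. None was called in Remote tumor (no MV) against CTX, where 0.457% and 0.247% of all genes were. No gene was called among 6 other sterol enzymes and cofactor genes. The highest of them in MV (L.i.t.) was Lbr, which shares its reductase step with Tm7sf2, at 0.20. None was called among 4 other genes of SREBP processing and retention. Their ratios in MV (L.i.t.) ran from the site-1 protease gene Mbtps1 at −0.59 to Insig2 at 0.07. Of 12 other fatty acid genes, 2 were called lower and none higher in each comparison. The lowest was Fads1, the delta-5 desaturase, at −1.21 [−1.28, −1.13] in MV (L.i.t.) and −1.26 in TRP-1MV, and the highest in MV (L.i.t.) was Acsl3, an acyl-CoA synthetase, at −0.11.

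Among 7 LXR receptor and target genes, 2 were called higher and 1 lower in each comparison with CTX. Over all compared genes 18.1% were called higher and 11.1% lower in MV (L.i.t.), and 18.5% and 11.7% in TRP-1MV. The intervals of 3 of the 7 lay above equality and those of 4 below, in each comparison. Arl4c, a small GTPase gene, was the highest at 4.69 [4.04, 5.42] in MV (L.i.t.) and 5.13 in TRP-1MV, and Nr1h3, encoding LXR alpha, had 26 reads in CTX, 42 in MV (L.i.t.) and 64 in TRP-1MV. Apoe, encoding the sterol carrier apolipoprotein E, was lower at −1.55 [−1.61, −1.49] and −1.67. Of 4 oxysterol enzymes 2 passed the minimum count, and Ch25h, the cholesterol 25-hydroxylase, was called higher at 1.75 [0.49, 3.15] with 19 reads against 8. Of 12 genes of sterol storage, traffic and uptake, 2 were called higher and 1 lower in MV (L.i.t.), and 3 and none in TRP-1MV. The scavenger receptor gene Cd36 led them with 567 reads in MV (L.i.t.), 1033 in TRP-1MV and 21 in CTX, and Lipa, the lysosomal acid lipase, was the lowest in MV (L.i.t.) at −1.03 [−1.13, −0.93].

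Markers of fat and skin cells, which also express these enzymes, were scarce. The 8 adipocyte markers summed to 6.38 CPM in Remote tumor (no MV), 7.51 in CTX, 13.8 in MV (L.i.t.) and 14.4 in TRP-1MV. Adipoq and Lep had 0 reads in CTX and Remote tumor (no MV), a count that allows up to 0.156 and 0.151 CPM, and Adipoq had 4 reads in each virus-treated library. The 8 sebocyte and keratinocyte markers summed to between 1.46 and 2.22 CPM, with Krt14, Krt10, Krt79 and Mc5r at 0 reads in CTX and Remote tumor (no MV). Awat2 had 16 reads in CTX, 18 in Remote tumor (no MV), 5 in MV (L.i.t.) and 3 in TRP-1MV. In the same order Elovl3 had 8, 6, 3 and 1 reads, Fa2h 4, 8, 12 and 8, and Krt5 0, 2, 1 and 9. Only Awat2 passed the minimum count, with log2 ratios to CTX of −1.17 in MV (L.i.t.) and −2.16 in TRP-1MV. The 6 hepatocyte markers summed to between 19.8 and 24.0 CPM. The part of these cell types in the enzyme levels was not tested.

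**Figure D4:**
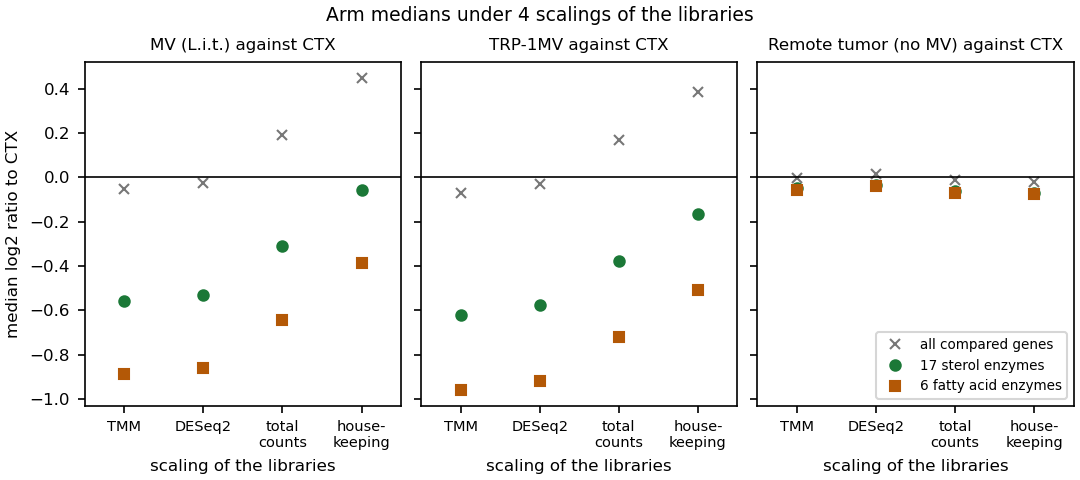
Median log2 ratio to CTX (y axis) of 17 sterol enzymes, 6 fatty acid enzymes and all compared genes under 4 scalings of the libraries (x axis). In both virus-treated libraries the arm medians lie below the median of all genes, by a gap that a change of scaling cannot alter. The sterol median approaches 0 on the housekeeping scale, while all medians of Remote tumor (no MV) lie near 0.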

How the data were processed

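RNA-seq was done on 4 libraries of B16 tumor tissue, 1 per group, grouped by sample title. The values the authors deposited are raw counts of reads for 25239 gene symbols, not normalized. Per the submitters' processing notes HISAT2, featureCounts and build mm10 were used; for versions, annotation, strand setting and multi-mapping, nothing was found: not given in the sources used here. Counts were scaled with TMM factors (edgeR 4.0.16 in R 4.3.3) to CPM. Genes with a mean count of at least 10 were compared, 13357 in all. Log2 ratios have exact 95% conditional binomial (Clopper-Pearson) intervals (scipy 1.17.1, numpy 2.4.6, pandas 2.3.3, Python 3.11.15; figures with matplotlib 3.10.9). A count of 0 was given an upper limit of 3 counts. Calls need a ratio of at least 2 and an interval excluding equality. The rule was tried on counts simulated with counting error alone and with the same scaling factors. That trial cannot check spread between animals or the scaling. With 1 library per group no p-value was computed. Exon lengths, positions and overlaps came from GENCODE M21, promoters from RefSeq (GRCm38.p6). All 30 members were named; of related lists, the highest and lowest ratios in MV (L.i.t.) against CTX, while Nr1h3, Adgre1 and single marker genes were named after their values were seen. One gene that this rule names is not reported here. Members and lists were chosen with earlier results of these data known. Alternatives were DESeq2 1.42.0 size factors, total counts, a 13-gene housekeeping scale, other minimum counts, a fold of 1.5, thinning, means, and leaving out uncertain members. Scd2, and members whose exons overlap another gene, were left out as alternatives chosen after seeing the data.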

Additional observations from a re-analysis of the deposited data

How the results depend on the processing

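Where computed, DESeq2 size factors and thinning to 12375526 reads changed no count of called members by over 1.5 times. Where computed, they also moved no arm median past its limits. All 30 members had a mean of at least 50 reads. Dropping the minimum count or raising it to 50 therefore could not change a member value, and is no check of them. Values are for MV (L.i.t.) against CTX, TRP-1MV against CTX and MV (L.i.t.) against Remote tumor (no MV), in that order. With total counts the sterol median was −0.31, −0.38 and −0.30 and the fatty acid median −0.64, −0.72 and −0.55. On the housekeeping scale the sterol median was −0.056, −0.17 and −0.0365 and the fatty acid median −0.39, −0.51 and −0.29. On either scale 2 genes, Dhcr7 and Elovl6, were called lower in each, against 4 on the TMM scale in the last. At a fold of 1.5 the members called lower numbered 12, 14 and 11. The share of all compared genes called at that fold is not given here, so these counts have no background beside them. Without Acat2, Scd1 and Scd2 the fatty acid median was −0.66, −0.69 and −0.62, and the gap between the arms in TRP-1MV against CTX was 0.079. By means the fatty acid arm in that comparison stood at −0.88. Leaving out members whose exons overlap another gene by over 10%, chosen after seeing the data, put the sterol median at −0.67, −0.62 and −0.56. The shifts under another scaling follow from its construction. Depth limits Abcg1 in CTX and Remote tumor (no MV), with 38 and 23 reads. No paired analysis was possible because there was a single library a group.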
